A study of Homo sapiens with 8 samples.

Results

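Secreted antagonists of WNT signalling were followed across the series: SFRP1, SFRP2, SFRP4, SFRP5, DKK1, DKK2, DKK3, DKK4 and WIF1. They were chosen by name, as every array probe that is not a control and carries one of these 9 gene names, dim probes included. This gave 11 probes on 20 spots for 9 of the 34423 gene names on the array, and 2 genes, SFRP4 and DKK3, had more than 1 probe. WNT proteins are secreted ligands that bind Frizzled receptors and the co-receptors LRP5 and LRP6, which stabilizes beta-catenin and switches on TCF and LEF target genes. SFRP proteins resemble the ligand-binding part of Frizzled and, like WIF1, bind WNT ligands outside the cell, whereas DKK1, DKK2 and DKK4 bind LRP5 and LRP6. DKK3 is a divergent member of the DKK family that does not act through LRP6 in the same way. Several of these genes are known to be silenced by promoter methylation in colorectal cancer.

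Gene expression was measured in HCT116, a human colorectal cancer cell line, on 8 single-color Agilent arrays. CONT1 and CONT2 were clones that carried the miR-neg plasmid. TET1-KD1 and TET1-KD2 were clones made with the artificial miRNAs miTET1-1 and miTET1-2 against TET1, an enzyme that oxidizes 5-methylcytosine. Which knockdown clone carried which miRNA was not given in the sources used here. All 4 were stably transfected clones kept after G418 selection, and each was measured untreated and after 1 µM 5-aza-dC, an inhibitor of DNA methyltransferases, for 72 h with drug and medium replaced daily. Each condition therefore had n = 2, and the 2 arrays of a condition came from different clones, so p-values measure the spread between clones.

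The labels conflict on the treatment. The titles give each clone with and without 5-aza-dC, whereas a treatment field gives mock for the 4 control arrays and 5-aza-dC for the 4 knockdown arrays. The titles were followed. The treated arrays of CONT1 and CONT2 shared a second slide, scanned 230 days after the slide of the other 6, so slide and treatment cannot be told apart in the control clones. The responses of the knockdown clones and the comparison of untreated clones lie within the first slide. After scaling, spike-in RNAs on the second slide differed from the first by 0.43 and 0.28 log2 units at the 2 dimmest levels, by -0.10 at a log2 signal of 4.58 on the first slide, and by -0.56 at 7.80 on the first slide. Colorectal epithelial genes were present as the label says, with 7 of 9 (EPCAM, CDH1, KRT8, KRT18, KRT19, CDX1 and CDX2) above background on all 8 arrays. KRT20 was above background on 7 arrays and VIL1 on 2. The most intense TET1 probe read 833 and 859 in untreated CONT1 and CONT2, 402 in untreated TET1-KD1 and 682 in untreated TET1-KD2, and the difference did not pass the test (log2 -0.69, SE 0.29, adjusted p = 0.61 by limma). The other 2 TET1 probes were also lower on average in the untreated knockdown clones, and neither passed. For 1 of them the log2 difference was -0.98 (adjusted p = 0.585, limma). The other read 31 and 20.8 in untreated CONT1 and CONT2. It read 4.58 and 7.23 in untreated TET1-KD1 and TET1-KD2, where it was not above background. Its fitted log2 difference of -2.14 (adjusted p = 0.37, limma) is therefore not a size of the reduction.

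The first 250 bases before the start site show how CpG dinucleotides, the sites that DNA methyltransferases modify, are spread before 4 of these genes. Promoters of 5 of the 9 genes were found in the RefSeq table (GRCh38.p14), and the 4 below are WIF1, which rose in the control clones, SFRP2, which was at the limit of detection, DKK1, which was above background in every clone, and SFRP5, which was above background in none. Every CpG is in capitals, and each sequence runs 5′ to 3′ on the gene's strand. WIF1 lies on the minus strand at chr12:65121306-65121555, SFRP2 on the minus strand at chr4:153789084-153789333, DKK1 on the plus strand at chr10:52314031-52314280 and SFRP5 on the minus strand at chr10:97772000-97772249.
WIF1: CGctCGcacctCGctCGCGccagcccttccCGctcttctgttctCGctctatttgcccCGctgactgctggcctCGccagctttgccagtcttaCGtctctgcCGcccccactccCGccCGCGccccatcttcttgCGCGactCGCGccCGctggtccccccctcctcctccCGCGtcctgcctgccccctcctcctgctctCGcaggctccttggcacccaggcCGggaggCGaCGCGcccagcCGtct
SFRP2: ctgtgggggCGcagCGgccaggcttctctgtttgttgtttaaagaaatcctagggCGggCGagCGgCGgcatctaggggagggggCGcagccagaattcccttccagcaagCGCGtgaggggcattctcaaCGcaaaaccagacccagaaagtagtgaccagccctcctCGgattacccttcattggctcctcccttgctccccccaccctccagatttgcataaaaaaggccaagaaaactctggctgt
DKK1: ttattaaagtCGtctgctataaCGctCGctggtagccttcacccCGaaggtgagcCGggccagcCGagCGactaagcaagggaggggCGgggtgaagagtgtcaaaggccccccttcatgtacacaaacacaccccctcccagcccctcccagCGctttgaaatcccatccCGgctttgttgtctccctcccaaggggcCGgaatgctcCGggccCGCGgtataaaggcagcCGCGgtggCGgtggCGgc
SFRP5: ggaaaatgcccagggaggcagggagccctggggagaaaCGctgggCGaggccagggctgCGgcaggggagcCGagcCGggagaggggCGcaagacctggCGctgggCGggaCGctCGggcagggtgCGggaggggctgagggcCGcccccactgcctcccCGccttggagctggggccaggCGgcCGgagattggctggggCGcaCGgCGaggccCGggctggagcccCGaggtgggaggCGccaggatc

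The WIF1 window held 27 CpG, and 17.7% of the 35116 RefSeq promoters held at least as many. SFRP5 held 21, DKK1 held 18, SFRP4 (not shown) held 17 and SFRP2 held 11, and at least as many were found in 30.2%, 36.8%, 39.0% and 50.3% of promoters. The DKK1 window also holds the letters TATAAA, which occur on the gene strand in 6.8% of promoters of this length. Methylation was not analysed here, so these counts are a description of sequence only.

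**Figure D1:**
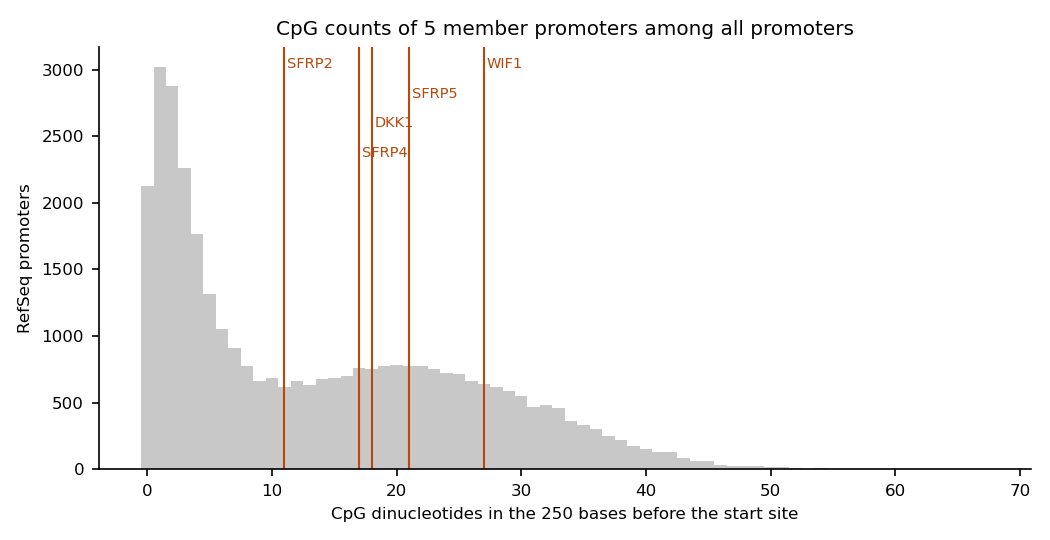
CpG counts in the 250 bases before the start site, with the number of RefSeq promoters on the vertical axis and the 5 genes found in the table as vertical lines. WIF1, at 27, lies farthest to the right and SFRP2, at 11, farthest to the left of the 5.

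Signals below are intensities scaled to the 75th percentile of each array. A probe is called above background where the scanner software marks it well above the local background, and a probe that was not has only an upper bound. Of the 11 probes, 5 were measured on both arrays of some condition and were therefore tested (SFRP1, WIF1, DKK1, DKK3 and DKK4, 1 probe each), and 4 were above background on no array. Fewer cells that express a gene and less RNA per cell cannot be told apart in these bulk samples.

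**Figure D2:**
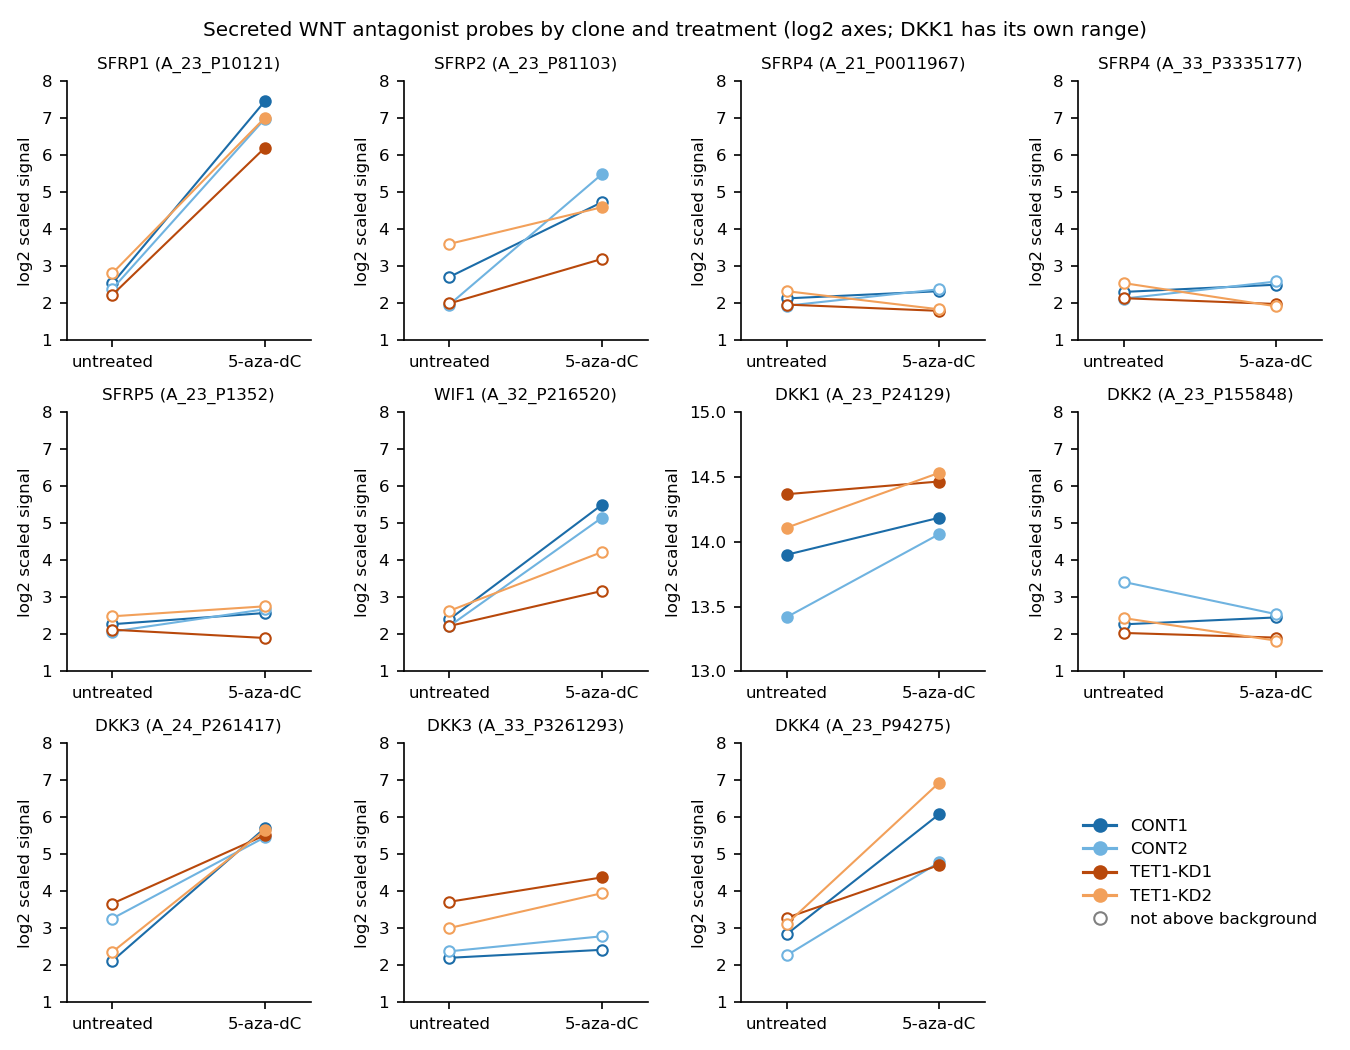
Log2 scaled signal (vertical axes) of all 11 probes in each clone, untreated and after 5-aza-dC, joined by a line per clone. Filled points are above background and open points are not. SFRP1, WIF1, DKK3 (A_24_P261417) and DKK4 started at background in every clone, and DKK1 was above background on all 8 arrays.

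Among the WNT-binding antagonists, SFRP1 rose in both kinds of clone. Its signal was 5.81 and 5.25 in untreated CONT1 and CONT2, 4.69 and 7.04 in untreated TET1-KD1 and TET1-KD2, and none of these arrays was above background. After 5-aza-dC it was 177 and 127 in CONT1 and CONT2 and 73.8 and 129 in TET1-KD1 and TET1-KD2, with all 10 spots above background on each array. The treated and untreated groups did not overlap, and treated TET1-KD1 was the lowest of the 4 treated clones. The rise was at least 7.52-fold in the control clones and at least 4.54-fold in the knockdown clones. The fitted log2 changes were 4.76 (SE 0.34, adjusted p = 0.000266, limma) and 4.09 (SE 0.34, adjusted p = 0.000783, limma). With an offset of 50 added before the log, the fitted change in the control clones was 1.84 and still passed, so the fitted values of such dim probes are not a size of the rise.

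WIF1 rose in the control clones. Its signal was 5.32 and 4.69 in untreated CONT1 and CONT2 and reached 45.5 and 35.7 after treatment, where both arrays were above background. In the knockdown clones it was 4.69 and 6.23 untreated and 9.03 and 18.7 treated in TET1-KD1 and TET1-KD2, and it was above background on none of these 4 arrays. Every clone therefore had a higher signal after treatment, but both treated knockdown clones lay under both treated control clones. The rise in the control clones was at least 2.02-fold (log2 3.01, SE 0.36, adjusted p = 0.00161, limma). The log2 difference in the knockdown clones was 1.27 (SE 0.36, adjusted p = 0.0767, limma), and with the replicate block, in which each clone is paired with itself, the same difference passed (SE 0.20, adjusted p = 0.0313). The replicate block was the only 1 of 11 alternatives, apart from fits without 1 array, in which it passed. Over the 8 fits without 1 array the log2 difference ran from 0.74 to 1.79, the highest being without treated TET1-KD1.

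SFRP2 was at the limit of detection. Its signal was 6.57 and 3.92 in untreated CONT1 and CONT2 and 26.7 and 45.1 after treatment, and only treated CONT2 of these was above background. TET1-KD1 read 4 untreated and 9.21 treated, and TET1-KD2 read 12.2 and 24.3, and only treated TET1-KD2 was above background. All 4 clones read higher after treatment, but the probe met the filter in no condition and was not tested. SFRP4 was above background on no array with either probe, with signals from 3.48 to 6.03, and SFRP5 on none, with signals from 3.74 to 6.78. No change was detectable in them at this signal.

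Of the DKK genes, DKK1 was well above background on all 8 arrays. Its signal was 15300 and 11000 in untreated CONT1 and CONT2 and 18600 and 17100 after treatment. In TET1-KD1 it was 21200 untreated and 22600 treated, and in TET1-KD2 17700 and 23700. Each clone read slightly higher after treatment, but the log2 differences, 0.46 (SE 0.21) in the control and 0.26 (SE 0.21) in the knockdown clones, did not pass (adjusted p = 0.119 and 0.471, limma). The sign in the control clones turned when signals were interpolated on the spike-ins, where it was -0.19. DKK2 was above background on no array, with log2 signals from 1.83 to 3.42.

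DKK3 rose in both kinds of clone by its probe A_24_P261417 (hg19, chr11:11984915-11984974, minus strand). That probe read 4.35 and 9.63 in untreated CONT1 and CONT2 and 52.4 and 44.1 after treatment. In TET1-KD1 and TET1-KD2 it read 12.7 and 5.14 untreated and 45.9 and 50.4 treated. It was above background in all 4 treated and in no untreated array, and the 4 treated values overlapped between kinds of clone. The rise was at least 2.42-fold in the control clones (log2 2.89, SE 0.52, adjusted p = 0.0065, limma) and at least 2.23-fold in the knockdown clones (log2 2.57, SE 0.52, adjusted p = 0.0266, limma). In the knockdown clones the call was kept in 3 of 8 fits that left out 1 array. It was lost without untreated TET1-KD2 (log2 1.92), treated TET1-KD1 (log2 2.64) or treated TET1-KD2 (log2 2.50). It was also lost without treated CONT1 or CONT2, where the log2 difference stayed at 2.57. Control arrays enter this comparison only through the shared estimate of the spread.

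The second DKK3 probe, A_33_P3261293 (hg19, chr11:11986163-11986222, minus strand), was not above background in the control clones, where only the first probe showed the rise. Why the probes differ was not tested. The second probe read 4.61 and 5.21 in untreated and 5.36 and 6.90 in treated CONT1 and CONT2, 13.2 and 20.8 in TET1-KD1 without and with treatment, and 8.07 and 15.5 in TET1-KD2. Every clone read higher after treatment, by 0.22 to 0.94 log2 units, but only treated TET1-KD1 was above background, and the probe was not tested. The first 30 of 60 bases of each are shown because the DKK3 result rests on 1 of them. They begin at positions 2328 and 1080 of the transcript, by the start column of the files.
A_24_P261417: ggtaattgtagggcgaggattataaatgaa
A_33_P3261293: tgtatgtgtgcaagccgaccttcgtgggga

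DKK4 rose in the control clones. CONT1 read 7.16 untreated and 68.0 treated, and CONT2 read 4.83 and 27.6, a rise of at least 2.17-fold (log2 2.88, SE 0.76, adjusted p = 0.0254, limma). TET1-KD1 read 9.76 and 26.2 and TET1-KD2 read 8.70 and 123, with all 4 treated arrays and no untreated array above background. The knockdown clones held both the lowest and the highest treated value, and their log2 difference of 2.62 (SE 0.76, at least 2.63-fold) did not pass (adjusted p = 0.0791, limma). Over the 8 fits without 1 array it ran from 1.51 to 3.74, the highest being without treated TET1-KD1. It passed in 0 of the 11 other alternatives in which DKK4 was tested. The call in the control clones was lost without untreated CONT1 (adjusted p = 0.0718), untreated CONT2 (adjusted p = 0.115) or treated CONT1 (adjusted p = 0.12).

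In the control clones 4 of the 5 tested probes rose and none fell, where 19.2% of all 27287 tested probes rose and 22.6% fell. In the knockdown clones 2 rose and none fell, against 8.91% and 2.9% of all tested probes. The median log2 difference over all tested probes was -0.08 and -0.07 in the 2 comparisons. The 4 probes passed the filter only through treated arrays, so that these counts are a description. The split over all probes in the control clones moved from 5234 higher and 6168 lower to 4037 and 8993 with spike-in interpolation, and in the knockdown clones from 2430 and 790 to 2061 and 1259 with quantile normalization and to 2040 and 1131 with normexp background correction.

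**Figure D3:**
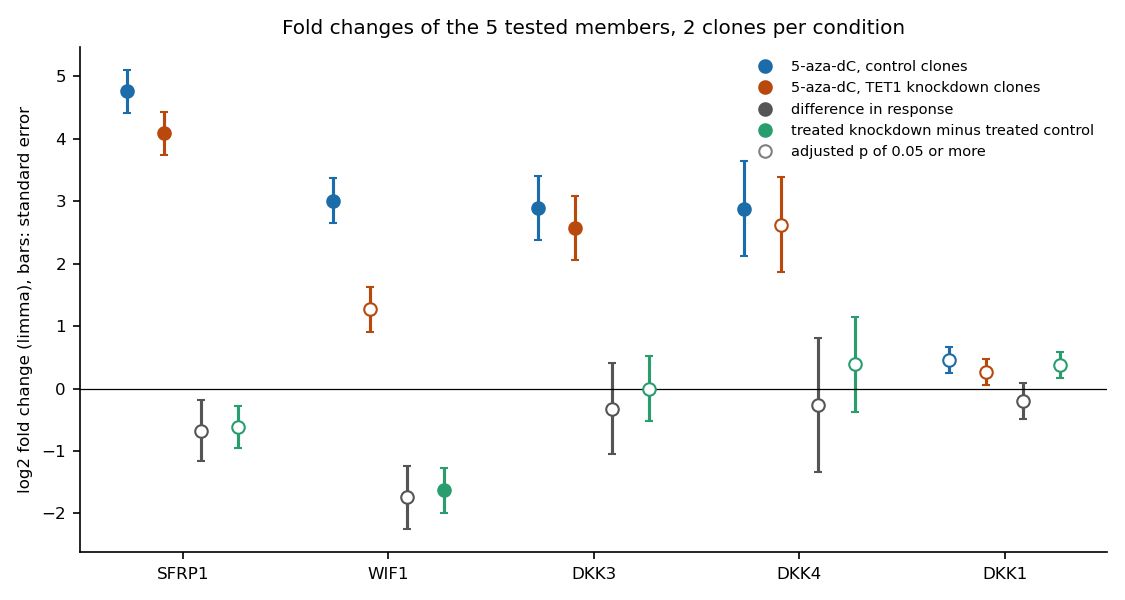
Log2 fold changes (limma) of the 5 tested genes with standard errors, for 5-aza-dC in each kind of clone, the difference between these responses, and treated knockdown minus treated control clones. Filled points have an adjusted p under 0.05. The filled points are 4 in the control clones, 2 in the knockdown clones and WIF1 between treated clones.

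The 2 responses to 5-aza-dC were compared by their difference, knockdown minus control. The control response was measured across 2 slides and the knockdown response within the first slide. Slide and kind of clone therefore cannot be told apart in this difference. No member passed, against 4.02% of all probes with a more positive and 1.56% with a more negative difference (1097 and 425 probes, 2011 and 347 with spike-in interpolation, 433 and 396 with normexp). WIF1 came closest, at log2 -1.74 (SE 0.51, adjusted p = 0.105, limma), and was the 1 member with an unadjusted p under 0.05. The paired fit gave it an adjusted p of 0.0531 with the replicate block. The WIF1 value rests on readings that were not above background on 6 of the 8 arrays, including all 4 of the knockdown clones. The difference was -0.67 (SE 0.48) for SFRP1, -0.32 (SE 0.73) for DKK3, -0.26 (SE 1.07) for DKK4 and -0.20 (SE 0.29) for DKK1, with adjusted p from 0.44 to 0.906.

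Treated clones were also compared directly. WIF1 was at least 2.26-fold higher in treated control than in treated knockdown clones (log2 -1.63 knockdown minus control, SE 0.36, adjusted p = 0.0295, limma), and no other member passed, against 11.9% of all probes higher and 6.91% lower in the knockdown clones (3236 and 1885 probes, 5037 and 1264 with spike-in interpolation, 2155 and 2643 with normexp). The 2 groups lie on different slides. WIF1 passed the filter only through the treated control arrays, the higher group here, so its call is a description. The call was lost without treated CONT1 (log2 -1.46), treated CONT2 (log2 -1.81) or treated TET1-KD1 (log2 -1.10). It was also lost without untreated CONT1 or CONT2, where the log2 difference stayed at -1.63. Untreated arrays enter this comparison only through the shared estimate of the spread. With no filter on dim probes the call was lost too (adjusted p = 0.0541, limma). It was also lost with spike-in interpolation (log2 -1.43, adjusted p = 0.0502, limma). DKK1 was then higher in the treated knockdown clones (log2 0.96, adjusted p = 0.023), against 0.38 (SE 0.21, adjusted p = 0.243) without it.

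In untreated clones no member passed, where 0.00733% of all probes were higher and 0.00733% lower in the knockdown clones. DKK1, at log2 0.58 (SE 0.21, adjusted p = 0.561, limma), was the 1 member with an unadjusted p under 0.05, and both untreated knockdown clones read above both untreated control clones. The other 4 tested members were above background on no untreated array.

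Genes whose profile over the 8 arrays was most like each responding member were found by the root mean square difference of log2 signals after centring each gene. SFRP1 was closest to PRR20B (0.13), SPESP1 (0.17) and GLS2 (0.18), and WIF1 to AGMO (0.14), RNF150 (0.18) and DPY19L2P3 (0.19). DKK3 was closest to EFR3B, ZAR1 and CCNI2 (0.30 to 0.33) and DKK4 to SDK2, XAGE3 and ELMO1 (0.35 to 0.38). Between members the difference was 0.80 for DKK3 and DKK4, with 991 tested probes closer to DKK3 than DKK4 was, and 1.20 for SFRP1 and WIF1, with 1520 closer to SFRP1. All 4 profiles include untreated readings that were not above background.

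The rest of the pathway was described from lists of 87 genes, all with a probe, of which 70 were tested. In the control clones 12 rose and 10 fell (median log2 0.03, against -0.08 over all probes), beside 19.2% and 22.6% of all tested probes. In the knockdown clones 5 rose and 2 fell (median 0.18, against -0.07), beside 8.91% and 2.9%. These shares of all probes also stand beside the counts of each list below, and no list was tested as a set. None passed by limma for the difference in response, where 11 had an unadjusted p under 0.05, or between untreated clones, where 3 did. No share of all probes was computed at that unadjusted threshold. With each probe's own variance, 2 passed for the difference in response (RYK and GSK3A, named after their values were seen). Beside them, 664 of all 27287 probes had a more positive and 387 a more negative difference. Between untreated clones 0 passed in that fit, beside 0 higher and 1 lower of all probes. Between treated clones, which lie on different slides, RSPO3 was higher in the knockdown clones (log2 1.25, adjusted p = 0.0421, limma), beside 11.9% of all probes. LEF1 (log2 -2.88, adjusted p = 0.0433), LRP6 (-0.83, adjusted p = 0.0171), DVL1 (-0.66, adjusted p = 0.0443), WNT10B (-1.30, adjusted p = 0.0166) and RYK (-0.54, adjusted p = 0.0424) were lower by limma, beside 6.91% of all probes. WNT10B and RYK were named after their values were seen. LEF1 passed the filter only through the treated control arrays, the higher group here. Of its 2 treated knockdown readings 1 was above background, so the LEF1 call is a description. Among other secreted antagonists and DKK co-receptors, 6 of 12 were tested, with a median log2 difference of 0.03 in the control and 0.30 in the knockdown clones. FRZB, a further SFRP family member, rose 1.96-fold in the control clones (log2 0.97, SE 0.20, adjusted p = 0.011, limma), and KREMEN1, a DKK co-receptor, fell (log2 -0.66, SE 0.18, adjusted p = 0.0288, limma). None of the 6 passed in the knockdown clones.

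Of 16 tested ligand and secretion genes, 3 rose in the control and 2 in the knockdown clones and none fell (medians 0.32 and 1.06). WNT5B, a ligand of the non-canonical branch, rose at least 4.33-fold in the control (adjusted p = 0.00705, limma) and at least 3.94-fold in the knockdown clones (adjusted p = 0.0154, limma). WNT1, a canonical ligand, rose at least 3.91-fold in the control clones (adjusted p = 0.0212, limma). WNT5B and WNT1 were above background on no untreated array. They passed the filter only through treated arrays, so their calls are a description. Of 19 tested receptor and R-spondin genes, 2 rose and 6 fell in the control clones, and 1 rose and 1 fell in the knockdown clones (medians -0.34 and -0.11). LRP5, a receptor of the DKK proteins, fell in both (log2 -1.35, adjusted p = 0.00135, and -0.70, adjusted p = 0.0363, limma). LRP6, the other one, rose by 0.52 in the control clones (adjusted p = 0.0374, limma). RSPO4, an R-spondin that strengthens WNT signalling, rose 4.86-fold in the control and 4.15-fold in the knockdown clones (adjusted p = 0.013 and 0.048, limma). RSPO3 fell in the control clones (log2 -1.46, adjusted p = 0.0129, limma), with 1 of 2 treated arrays above background.

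Of 19 tested genes of the cytoplasmic and nuclear chain, 3 rose and 3 fell in the control clones, and 1 rose in the knockdown clones (medians 0.06 and 0.05). LEF1, a transcription factor that binds beta-catenin, rose at least 15.2-fold in the control clones (adjusted p = 0.00156, limma) and passed in the knockdown clones (adjusted p = 0.0428, limma), where 1 of 2 treated arrays was above background. DVL1, which relays the signal from Frizzled, rose by 0.85 in the control clones (adjusted p = 0.00957, limma), and TCF7L2, the main TCF of colon epithelium, and BCL9L, a beta-catenin co-activator, fell (log2 -1.28 and -0.63, adjusted p = 0.0032 and 0.0188, limma). Of 10 target genes, 3 rose in the control clones, and 1 rose and 1 fell in the knockdown clones (medians 0.25 and 0.49). ASCL2, a transcription factor of intestinal stem cells, rose at least 23.9-fold in the control and at least 12.5-fold in the knockdown clones (adjusted p = 0.00023 and 0.000669, limma), and NKD1, a negative feedback regulator, rose 3.85-fold in the control clones (adjusted p = 0.0103, limma). LEF1 and ASCL2 were above background on no untreated array. They too passed the filter only through treated arrays, so their calls are a description.

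**Figure D4:**
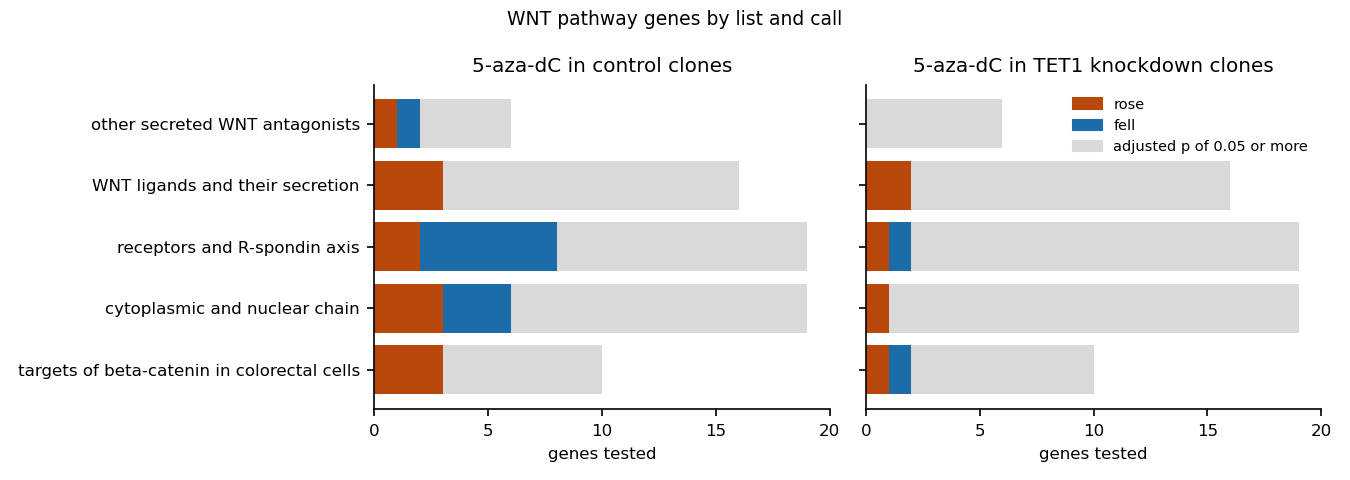
Number of tested genes (horizontal axes) of each WNT pathway list that rose, fell or did not pass after 5-aza-dC, in control clones (left) and TET1 knockdown clones (right). Of the 19 tested receptor and R-spondin genes, 6 fell in the control clones.

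Summed markers of other cell types were higher after treatment. The summed signal of 8 mesenchymal markers was 355 to 386 in untreated and 1560 to 1800 in treated control clones, and 361 to 464 and 1070 to 1410 in the knockdown clones. THY1 and DCN were above background on 4 arrays each, while COL1A2, COL3A1, LUM and PDGFRA were above background on none of the 8. The sum of 4 leukocyte markers was 126 to 166 in untreated and 1260 to 1600 in treated control clones, and 110 to 139 and 391 to 829 in the knockdown clones. The sum of 3 endothelial markers was 113 to 115 in untreated and 237 to 263 in treated control clones, and 94.6 to 107 and 193 to 286 in the knockdown clones. CDH5, an endothelial cadherin among these 3, read lower after treatment (log2 difference -2.10 in the control and -0.28 in the knockdown clones). Their part in the changes of the WNT antagonists was not tested.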

How the data were processed

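The authors deposited 1 scanner output per array, with spot intensity values from which Agilent Feature Extraction 10.7.3.1 (10.7 per the labels) had subtracted the background. A series table holds the same intensity values rounded to 3 significant digits (largest difference 0.497%). Normalization between arrays was not given in the sources used here.

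Of 62976 spots per array, 58717 were not controls. Flagged spots were left out. No spot was saturated. Each array was scaled so that its 75th percentile equalled the geometric mean of all 8, and a floor of 1 was set before log2, which no value reached. Repeated spots were averaged, which left 50543 of 50599 probes. A probe was above background where at least 0.5 of its spots were, and was tested where this held for both clones in any 1 condition (27287 probes).

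A limma 3.58.1 group-means model (R 4.3.3) was fitted over all 8 arrays, with Benjamini-Hochberg adjustment over all tested probes and a threshold of 0.05. Where 1 group was not above background on any array, the fold is a bound, the brighter mean over the dim group's lowest measurable signal on each array. Array numbers mark the same clone, so treated and untreated arrays are paired, and deviations of the clones correlated at 0.198 in the control and 0.476 in the knockdown clones. All probes of the 9 genes are named, with TET1. From each pathway list, up to 2 genes that rose most and up to 2 that fell most are named, of those that passed in the control clones, with any gene that passed for the difference in response or between untreated clones. The 3 most similar genes are named for each member that passed in the control clones. The members and lists were chosen with earlier results of these data known. The functions were tested on simulated data. Alternatives were normexp background correction, quantile normalization, other filters on dim probes, an offset of 50, the series table, a clone block, fits on 4 arrays, each probe's own variance as in the authors' methods, a 2-fold minimum, spike-in interpolation and leaving out each array. Promoters come from RefSeq (GRCh38.p14). The number of arrays limits the precision.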

Additional observations from a re-analysis of the deposited data

How the results depend on the processing

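The count of 4 members that rose in the control clones was 3 to 4 over the fits that left out 1 array, 3 (without DKK4) with normexp and with an offset of 50, and 2 (SFRP1 and WIF1) with each probe's own variance. The count of 2 in the knockdown clones was 1 to 3 over the fits without 1 array, 1 with quantile normalization, 1 with no filter on dim probes, 1 in a fit on the 4 arrays of the comparison, and 0 with each probe's own variance, where none of all tested probes passed. The count of 1 between treated clones was 0 to 1 without 1 array, and 0 with normexp, in the fit on 4 arrays and with each probe's own variance. With only probes above background on all 8 arrays, 1 member probe (DKK1) was tested and all 3 counts were 0. The 1 member called between treated clones was not WIF1 but DKK3 (A_33_P3261293, higher in the knockdown clones, adjusted p = 0.0349) with no filter, and DKK1 with spike-in interpolation. The count of 0 for the difference in response and for untreated clones held in every alternative run. SFRP2 rose in the control clones with no filter (log2 2.77, SE 0.70, adjusted p = 0.0384).

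SFRP1 passed in the control clones in all 8 fits without 1 array (log2 4.52 to 5.00) and in all 11 other alternatives in which it was tested, with log2 values from 4.53 to 4.79 except with normexp (1.68) and an offset of 50 (1.84). WIF1 also passed there in all 8 and all 11. The replicate block changed 1 call of a member, WIF1 in the knockdown clones. Spike-in interpolation moved the median of all probes in the control clones from -0.08 to -0.33, and quantile normalization to -0.20. With the 1st percentile as the floor, the bounds for SFRP1 became 6.50-fold and 3.94-fold, and those for DKK3 2.09-fold and 1.94-fold. Those for DKK4 became 1.88-fold in the control and 2.29-fold in the knockdown clones. For WIF1 the bound became 1.75-fold in the control clones and 2.08-fold between treated clones. The cause of these differences was not tested. Signals of 6 of the 11 probes were too near background for a test.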
